A study of Homo sapiens with 12 samples.

Results

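The circadian clock genes described here are PER1, PER2, PER3, CRY1, CRY2, NR1D1, NR1D2, BHLHE40, DBP and TEF, taken by symbol as 10 of the 26365 gene rows of the deposited expression table. They were followed in HCC70, an established human cell line from a basal-like triple-negative breast cancer. The cells stably carried 1 shRNA against LAD1 (shLAD1), which encodes the anchoring protein ladinin 1, or a scrambled shRNA (scramble). All cells were kept overnight in medium without serum. They were then left unstimulated (0 min) or given epidermal growth factor (EGF) at 50 ng/ml for 40 or 240 min, with 2 libraries in each of the 6 groups. Polyadenylated RNA was sequenced. No library was taken at 40 or 240 min without EGF, so an effect of EGF cannot be told apart from one of the time passed or of handling. Whether the 2 libraries of a group came from separate cultures is not given, and p-values measure only the spread between these libraries, which may be technical.

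The clock is a feedback loop of transcription. CLOCK or NPAS2 pairs with ARNTL (BMAL1) or ARNTL2, binds E-boxes, and switches on the PER and CRY genes, whose proteins then inhibit that pair. NR1D1 and NR1D2 (REV-ERB alpha and beta) repress ARNTL and its partners, BHLHE40 (DEC1) competes for E-boxes, and DBP and TEF are bZIP activators that bind D-boxes in output genes. PER1, PER2 and BHLHE40 are also known as genes that serum or growth factors switch on quickly in cultured cells.

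The deposited values gave back whole reads, between 12428618 and 16721013 per library. LAD1 was lower in shLAD1 than in scramble cells by a log2 fold change of -2.39 ± 0.08 (SE), averaged over the 3 times (limma-trend adjusted p = 2.3e-06). From 0 to 240 min, within library numbers 1 and 2, LAD1 rose by log2 1.22 and 1.41 in shLAD1 cells and 0.62 and 0.67 in scramble cells. The gap was thus smaller at 240 min, though the difference in rise did not reach an adjusted p under 0.05. The immediate early genes FOS and EGR1 were higher at 40 min in scramble cells, by log2 5.43 ± 0.12 and 6.25 ± 0.27. The basal keratin KRT5 stood at 39623 to 78195 normalized counts, while PGR, the progesterone receptor, never passed 1.03 and ESR1, the estrogen receptor, stood at 18 to 29. Among markers of other cells, the stromal genes COL1A2, COL3A1, DCN and LUM and the leukocyte gene PTPRC never passed 1.12, CD3E reached 3.0, and the endothelial genes PECAM1, VWF and CDH5 reached 18.4, 10.5 and 28.3. COL1A1 (243 to 895) and CD68 (741 to 1577) were higher. All 10 clock genes passed the filter of 10 normalized counts in at least 2 libraries, as did 13950 genes in all. Changes below are log2 fold changes on the log2(normalized count + 1) scale, and a call means an adjusted p under 0.05 (Benjamini-Hochberg, over those 13950 genes).

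Because the loop works through E-boxes and D-boxes, the promoter sequences of the 10 genes were searched for both. RefSeq (GRCh38.p14) gave 14 promoters for the 10 genes, each running from 250 bases before a start site to 50 after it. The E-box CACGTG was present in promoters of 4 of the 10 genes (PER1, NR1D2, BHLHE40 and TEF) and in 5 of the 14 promoters, against 7.26% of all 35116 promoters. A D-box (TTATGTAA, TTACGTAA or TTATGCAA) was present in 4 genes (PER1, PER2, PER3 and NR1D2) and 4 of the 14 promoters, against 1.84% of all. Both strands were searched, and no E-box overlapped a D-box. Every match is shown on the gene's strand, 5′ to 3′, with the motif in capitals and up to 11 bases on each side.
PER1 E-box, chr17:8152561-8152588, minus strand, 173 bases before the start: gcacccaggtcCACGTGcgcccgtgtgt
PER1 D-box, chr17:8152416-8152445, minus strand, 30 bases before: agtgcccggcaTTATGCAAcccgcctcccc
PER2 D-box, chr2:238288595-238288624, minus strand, 3 bases before: cccgctgcggcTTACGTAAccgccgccggc
PER3 D-box, chr1:7784103-7784132, plus strand, 177 bases before: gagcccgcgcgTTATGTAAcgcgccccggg
BHLHE40 E-box, chr3:4979187-4979208, plus strand, 245 bases before: tccaaCACGTGagactcatgtg
NR1D2 upstream E-box, chr3:23945955-23945982, plus strand, 155 bases before: gcgggcggggaCACGTGaggccgctcgg
NR1D2 downstream E-box, chr3:23946005-23946032, plus strand, 105 bases before: ggccgcagggaCACGTGggggcgggggc
NR1D2 D-box, chr3:23945916-23945945, plus strand, 194 bases before: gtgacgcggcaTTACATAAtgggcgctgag
TEF E-box at one start, chr22:41367249-41367276, plus strand, 195 bases before: cgcgacagctcCACGTGctgcagctggc
TEF E-box at the other start, chr22:41381738-41381765, plus strand, 193 bases before: acctggccccgCACGTGtctatcttatc

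PER1 and NR1D2 carried both motifs. The full cAMP response element TGACGTCA was in none of the 14 promoters and in 1.85% of all. Its core TGACG was in 6 of the 14 promoters (of PER2, CRY1, CRY2 and NR1D2) and in 24.6% of all. The core of the element bound by ROR and REV-ERB factors (TAGGTCA or TGGGTCA) was in 2 of the 14 promoters (of CRY2 and NR1D2) and in 5.69% of all. These are matches of letters in a window, and binding was not measured.

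The 10 genes differed widely in level. Per kb of exon in the basic transcript set of GENCODE v29, the median over the 12 libraries was 1147 normalized counts for BHLHE40 and 218 for PER3. It was 128 for DBP, 123 for CRY1, 94.8 for NR1D1, 79.6 for NR1D2, 68.8 for TEF, 67.2 for PER2 and 44.9 for CRY2, and lowest for PER1 at 25.5. The ranges over libraries of neighbours from DBP down to PER1 overlapped. PER3, at 175 to 248 per kb, lay above the range of DBP but not that of CRY1, and BHLHE40, at 802 or more, lay above all the others. The order in between rests on the exon set. Per kb of the exons of all GENCODE v29 transcripts, a set tried after the data were seen, DBP had 56.3 in place of 128 and came after PER2 (62.4), and NR1D1 (94.8) came before CRY1 (79.5), while BHLHE40 (1038) and PER3 (174) stayed highest and CRY2 (31.6) and PER1 (19.9) lowest. PER1 rested on 54 to 324 reads per library and the other genes on at least 133.

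**Figure D1:**
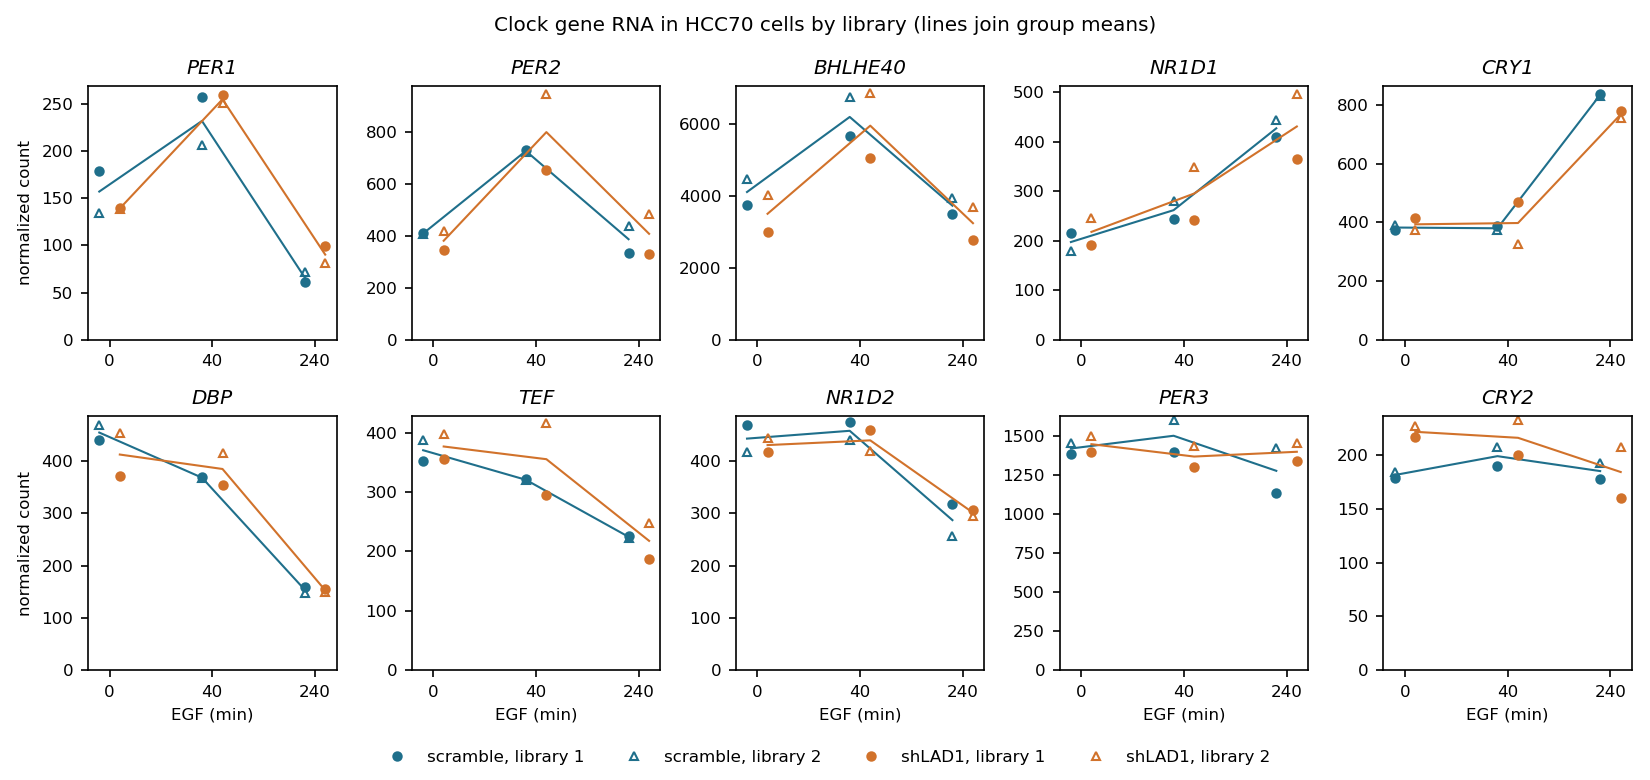
Normalized counts of the 10 clock genes (linear y axis from 0) in each of the 12 libraries at 0, 40 and 240 min of EGF; the x axis is spaced by group, not by time. Circles and triangles are libraries 1 and 2, blue is scramble and orange is shLAD1, and lines join group means. PER1, PER2 and BHLHE40 are highest at 40 min, CRY1 and NR1D1 are highest at 240 min, and DBP, TEF and NR1D2 are lowest at 240 min.

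At 40 min, 4 of the 10 genes were higher than at 0 min within every shRNA and library number: PER1, PER2, BHLHE40 and NR1D1. How many of all genes were higher in this way was not counted, so the agreement is a description only. None of these 4 clock genes was called in the fit without a block. In that fit 0.846% of all genes were called higher and 0.00717% lower in scramble cells, and 1.02% and 0.0215% in shLAD1 cells. At an unadjusted p under 0.05, 4 clock genes passed in scramble cells (PER1, PER2 and BHLHE40 higher and DBP lower), as did 4.54% of all genes, and 3 in shLAD1 cells (PER1, PER2 and BHLHE40), as did 5.46%. edgeR called none in either, and DESeq2 called none in scramble cells and 3 in shLAD1 cells. Of all genes, DESeq2 called 1.22% and 1.48% higher. Same-numbered libraries deviated together, so the fits with the library number as a block stand beside these values. With a block for the number, 2 clock genes were called higher in scramble cells and 3 in shLAD1 cells, against 1.40% and 1.84% of all genes. With a block for the number within each shRNA, 4 were called higher in each, against 3.18% and 4.02% of all genes.

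PER2 encodes a core repressor of the loop. The scramble libraries measured 411 and 407 normalized counts at 0 min, 731 and 723 at 40 min, and 334 and 440 at 240 min. The shLAD1 libraries measured 344 and 418, then 653 and 946, then 332 and 484. The 40 min libraries lay above all others in both cell types, and the 0 and 240 min libraries overlapped. The 40 min change was 0.83 ± 0.23 in scramble cells (adjusted p = 0.32, and 0.020 with the block) and 1.05 ± 0.23 in shLAD1 cells (adjusted p = 0.095, and 0.0038 with the block). Over the other settings these adjusted p values ran from 4.0e-06 to 1 and from 8.6e-08 to 0.61. From 40 to 240 min PER2 fell by 0.92 ± 0.23 in scramble cells and by 0.97 ± 0.23 in shLAD1 cells (adjusted p = 0.022 and 0.020). The scramble call was lost without library 1 at 40 min (0.11), library 2 at 40 min (0.10) or library 1 at 240 min (0.13), and the shLAD1 call without library 2 at 40 min (0.11) or library 1 at 240 min (0.10) and in a fit of only the groups compared (0.15).

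BHLHE40, the basic helix-loop-helix repressor, was the most abundant of the 10. Scramble cells gave 3745 and 4468 normalized counts at 0 min, 5650 and 6736 at 40 min, and 3500 and 3954 at 240 min. Those with shLAD1 gave 2988 and 4016, then 5052 and 6850, then 2786 and 3695. Library 2 was above library 1 in every group, and within each number the 40 min change was nearly the same, at 0.59 and 0.59 in scramble cells and 0.76 and 0.77 in shLAD1 cells. Without a block this was 0.59 ± 0.21 (adjusted p = 0.73) and 0.76 ± 0.21 (adjusted p = 0.29). With the block for the number the errors fell to ± 0.07 and the adjusted p to 0.0014 and 1.7e-04, and over all other settings it ran from 2.8e-10 to 1 and from 1.7e-12 to 1. From 40 to 240 min BHLHE40 fell by 0.73 ± 0.21 (adjusted p = 0.042) and by 0.87 ± 0.21 (adjusted p = 0.023). The scramble call was lost without any 1 of the 4 libraries compared (0.088 to 0.22) and when genes were not filtered, and the shLAD1 call without library 2 at 40 min (0.13) or library 1 at 240 min (0.12) and in a fit of only the groups compared (0.12). Against 0 min, the 240 min levels were -0.14 ± 0.21 and -0.11 ± 0.21 and not called (adjusted p = 0.71 and 0.78). With the block within each shRNA, these small differences were called lower (adjusted p = 0.0090 and 0.034).

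**Figure D2:**
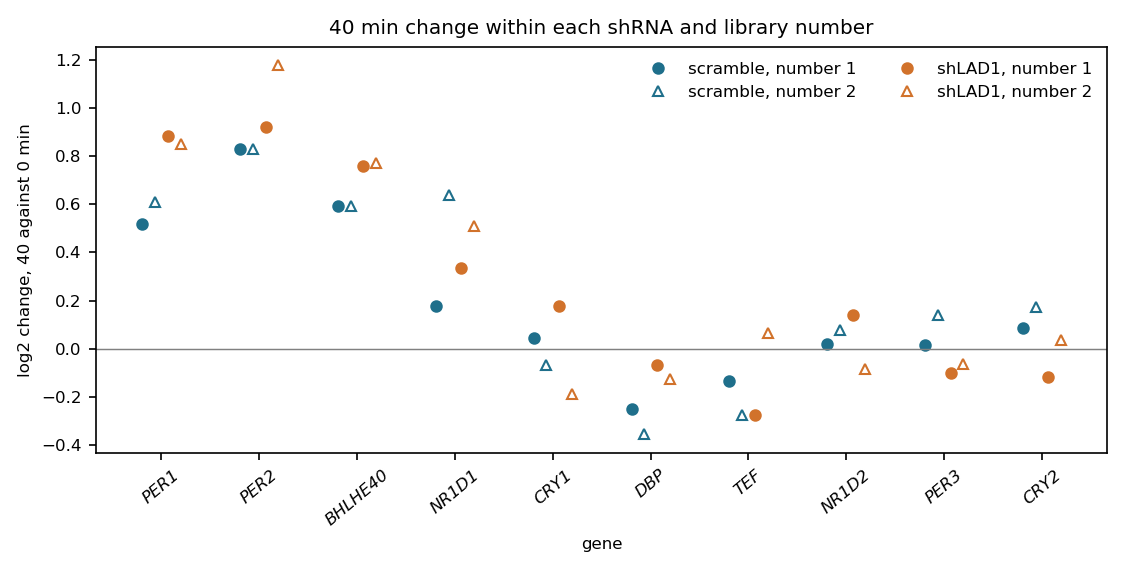
The log2 change from 0 to 40 min for each of the 10 clock genes (y axis), computed within each shRNA and library number; blue is scramble, orange is shLAD1, circles are number 1 and triangles number 2. All 4 points lie above 0 for PER1, PER2, BHLHE40 and NR1D1 and below 0 for DBP.

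PER1, the fastest reacting of the period genes in many tissues, was high at 40 min and low at 240 min. In scramble cells it measured 179 and 135 normalized counts at 0 min, 257 and 206 at 40 min, and 60.8 and 71.3 at 240 min. In shLAD1 cells it measured 140 and 138, then 259 and 250, then 99.2 and 81.0. The 3 times did not overlap in either cell type. The 40 min change was 0.56 ± 0.18 in scramble cells (adjusted p = 0.56; 0.22 with the block for the number and 0.024 with the block within each shRNA). It was 0.87 ± 0.18 in shLAD1 cells (adjusted p = 0.080; 0.020 and 2.5e-04 with the blocks), and over the other settings the 2 adjusted p values reached 1 and 0.38. From 40 to 240 min PER1 fell by 1.79 ± 0.18 in scramble cells (adjusted p = 4.6e-04), and in shLAD1 cells the change was -1.49 ± 0.18 (adjusted p = 0.0011). At 240 min it was below its starting level, by 1.23 ± 0.18 in scramble cells (adjusted p = 0.0019), and this call held in all 14 other settings. In shLAD1 cells it fell by 0.63 ± 0.18 (adjusted p = 0.043), and this call was lost without any 1 of the 4 libraries compared (0.053 to 0.21), in DESeq2, with no filter, and in a fit of only the groups compared.

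NR1D1 was the only one of the 10 genes that was higher at 40 min and higher again at 240 min within every shRNA and number. In scramble cells it measured 215 and 180 normalized counts at 0 min, 244 and 281 at 40 min, and 411 and 444 at 240 min. In shLAD1 cells it measured 191 and 245, then 241 and 350, then 365 and 497. In scramble cells the times did not overlap, while in shLAD1 cells the 0 and 40 min libraries did. The 40 min change was 0.41 ± 0.22 and 0.42 ± 0.22 (both adjusted p = 1). With the block for the number it was not called (0.59 and 0.45), and with the block within each shRNA it was (0.023 and 0.014). At 240 min NR1D1 rose by 1.11 ± 0.22 in scramble cells and by 0.97 ± 0.22 in shLAD1 cells (adjusted p = 0.0072 and 0.014). The scramble call was lost without library 2 at 0 min (0.061) or at 240 min (0.054). The shLAD1 call was lost without library 1 at 0 min (0.079), without library 2 at 240 min (0.095) and in a fit of only the groups compared (0.096). The step from 40 to 240 min, 0.71 ± 0.22 and 0.55 ± 0.22, was not called (adjusted p = 0.051 and 0.12) and was called with the block for the number (0.0090 and 0.031). In GENCODE v29, 263 of the 2772 exon bases of NR1D1 lie opposite exons of THRA, a thyroid hormone receptor gene on the other strand, and whether counting used the strand is not given. THRA changed by -0.29 ± 0.16 and -0.36 ± 0.16 at 240 min, which was not called (adjusted p = 0.26 and 0.16).

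**Figure D3:**
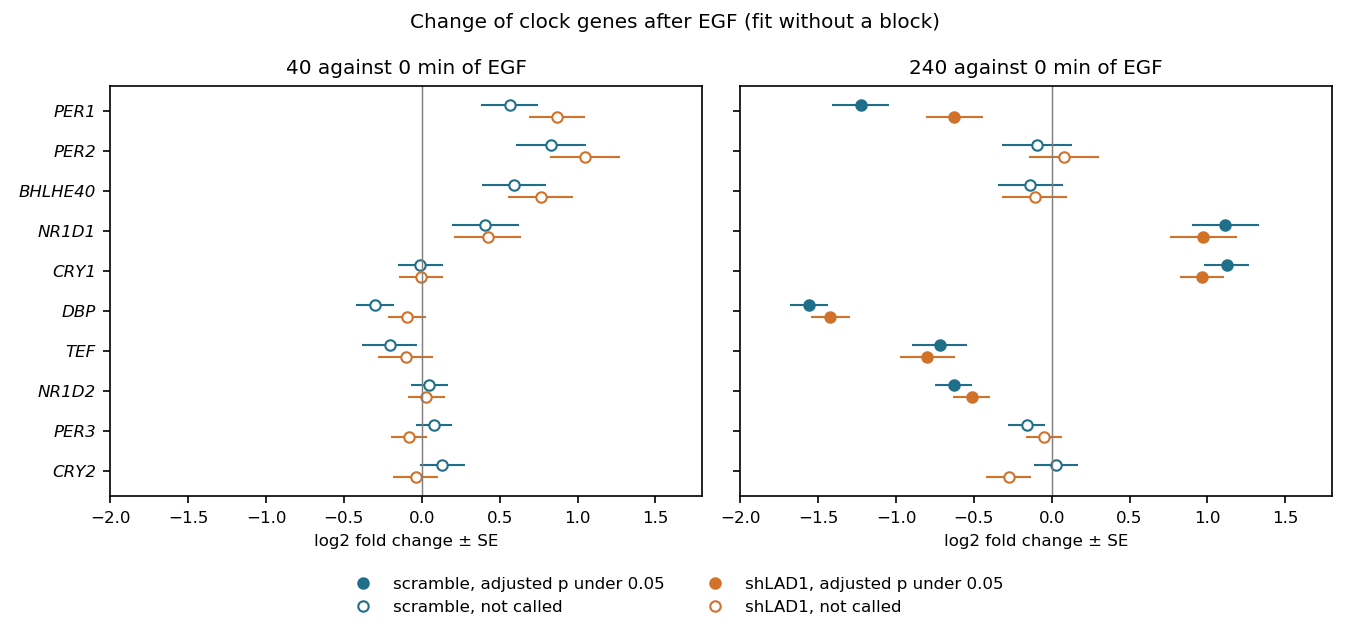
Log2 fold change ± SE (x axis, fit without a block) of each clock gene at 40 min and at 240 min against 0 min, for scramble (blue) and shLAD1 (orange) cells; filled points have an adjusted p under 0.05. No point is filled at 40 min, and at 240 min CRY1 and NR1D1 are filled to the right of 0 and PER1, DBP, TEF and NR1D2 to the left, in both cell types.

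At 240 min against 0 min, 2 clock genes rose and 4 fell in scramble cells, where 11.7% of all genes were called higher and 8.44% lower. In shLAD1 cells 2 rose and 4 fell, against 10.8% and 7.76% of all genes. In both, CRY1 and NR1D1 rose, and DBP, PER1, TEF and NR1D2 fell. From 40 to 240 min, 1 rose and 5 fell in scramble cells (10.2% and 8.34% of all genes), and 1 rose and 6 fell in shLAD1 cells (8.84% and 7.56% of all genes). The gene that rose in this step was CRY1, and TEF was called lower in shLAD1 cells and not in scramble cells, a difference in this step that was not tested. The comparisons with 0 min share their 0 min libraries.

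CRY1, the cryptochrome that represses CLOCK and ARNTL most strongly, did not follow the PER genes. Scramble cells held 375 and 391 normalized counts at 0 min, 387 and 373 at 40 min, and 840 and 831 at 240 min. Cells with shLAD1 held 414 and 374, then 468 and 328, then 781 and 756. All 4 libraries at 240 min lay above all 8 earlier ones. The 40 min change was -0.01 ± 0.14 in scramble cells and -0.00 ± 0.14 in shLAD1 cells (both adjusted p = 1). At 240 min CRY1 rose by 1.12 ± 0.14 in scramble cells (adjusted p = 9.0e-04), to 218% of its level at 0 min, and by 0.97 ± 0.14 in shLAD1 cells (adjusted p = 0.0023), to 195%. These calls against 0 min held in all 14 other settings. The step from 40 to 240 min, 1.13 ± 0.14 and 0.97 ± 0.14 (adjusted p = 0.0010 and 0.0026), was not called in shLAD1 cells in a fit of only the groups compared (0.089).

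DBP, a direct E-box output of the loop, had the largest fall of the 10 from 0 to 240 min in both cell types. The scramble values were 440 and 470 normalized counts at 0 min, 370 and 367 at 40 min, and 160 and 148 at 240 min. The shLAD1 values were 372 and 454, then 354 and 416, then 156 and 150. All 4 libraries at 240 min were below all 8 earlier ones, and the 0 and 40 min libraries overlapped in shLAD1 cells only. At 240 min DBP fell by 1.56 ± 0.12 in scramble cells (adjusted p = 1.3e-04), to 33.8% of its level at 0 min, and by 1.42 ± 0.12 in shLAD1 cells (adjusted p = 2.0e-04), to 37.0%. These calls held in all 14 other settings. At 40 min it was lower within every shRNA and number, by -0.30 ± 0.12 and -0.10 ± 0.12, and was called in no setting (adjusted p = 0.95 and 1; 0.11 and 0.74 at the lowest). Of 6544 exon bases of DBP, 661 lie opposite exons of SPHK2, a sphingosine kinase gene, which changed by 0.16 ± 0.17 and 0.06 ± 0.17 at 240 min (adjusted p = 0.57 and 0.87).

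TEF, a bZIP relative of DBP, also fell at 240 min. Scramble libraries ran at 353 and 388 normalized counts at 0 min, 321 and 320 at 40 min, and 226 and 223 at 240 min. Those of shLAD1 ran at 356 and 397, then 294 and 416, then 187 and 248. The 240 min libraries lay below all others. TEF fell at 240 min by 0.72 ± 0.18 in scramble cells and by 0.80 ± 0.18 in shLAD1 cells (adjusted p = 0.020 and 0.014). The scramble call was lost without any 1 of the 4 libraries compared (0.066 to 0.12). The shLAD1 call was lost without library 2 at 0 min (0.081), without library 1 at 240 min (0.079) and in a fit of only the groups compared. From 40 to 240 min it changed by -0.51 ± 0.18 in scramble cells (adjusted p = 0.077, and 0.015 with the block for the number). It fell by 0.70 ± 0.18 in shLAD1 cells (adjusted p = 0.027), a call lost without library 2 at 40 min (0.15) or library 1 at 240 min (0.14) and in a fit of only the groups compared (0.20).

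NR1D2, the second REV-ERB gene, moved opposite to NR1D1 at 240 min. In scramble cells it measured 468 and 417 normalized counts at 0 min, 474 and 441 at 40 min, and 317 and 256 at 240 min. In shLAD1 cells it measured 417 and 444, then 459 and 419, then 307 and 295. The 0 and 40 min libraries overlapped, and all 4 libraries at 240 min lay below them. NR1D2 fell at 240 min by 0.63 ± 0.12 in scramble cells and by 0.51 ± 0.12 in shLAD1 cells (adjusted p = 0.0063 and 0.017). The scramble call was lost without library 1 at 0 min (0.053). The shLAD1 call was lost without library 2 at 0 min (0.093), library 1 at 240 min (0.051) or library 2 at 240 min (0.086), and in a fit of only the groups compared. From 40 to 240 min it fell by 0.68 ± 0.12 (adjusted p = 0.0048) and by 0.54 ± 0.12 (adjusted p = 0.015), and the shLAD1 call was lost without library 1 at 40 min (0.079) or library 2 at 240 min (0.081) and in a fit of only the groups compared (0.10).

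PER3 and CRY2 were not called in any comparison without a block. PER3 measured 1136 to 1606 normalized counts in scramble cells and 1304 to 1503 in shLAD1 cells, and its 3 times overlapped in both. Its changes ran from -0.24 to 0.08, each ± 0.12. With the block for the number, the scramble step from 40 to 240 min was called lower (-0.24, adjusted p = 0.024), and with the block within each shRNA so was 240 against 0 min (-0.16, adjusted p = 0.023). CRY2, the second cryptochrome, measured 178 to 208 normalized counts in scramble cells and 161 to 233 in shLAD1 cells. Its changes ran from -0.28 to 0.13, each ± 0.14. The -0.28 at 240 min in shLAD1 cells (adjusted p = 0.22) was called with the block within each shRNA (0.043). PER3 shares 868 exon bases with UTS2 on the other strand, which had 0 reads in every library.

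Other genes of the loop were read from lists of 30 genes, of which 27 passed the filter; RORA, RORB and FBXL21 did not, with at most 5.14 normalized counts. At 240 min in scramble cells 9 of the 27 rose and 5 fell, with a median change of 0.21, against -0.02 over all genes tested, of which 11.7% rose and 8.44% fell. In shLAD1 cells 7 rose and 5 fell, with a median of 0.22, against -0.01 over all genes, of which 10.8% rose and 7.76% fell. At 40 min 1 rose in scramble cells and 2 in shLAD1 cells, and none fell, beside 0.846% and 1.02% of all genes called higher.

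Among the 5 tested genes of the activating arm, 4 rose and 1 fell at 240 min in each cell type, and none was called at 40 min. NPAS2, the partner that can replace CLOCK, measured 327 and 381 normalized counts at 0 min and 971 and 1168 at 240 min in scramble cells. It rose by 1.59 ± 0.20 in scramble and 1.58 ± 0.20 in shLAD1 cells (adjusted p = 8.9e-04 and 0.0011). ARNTL2 measured 379 and 380 normalized counts at 0 min and 1095 and 1254 at 240 min in scramble cells, and rose by 1.62 ± 0.23 (adjusted p = 0.0017) and in shLAD1 cells by 1.24 ± 0.23 (adjusted p = 0.0072). ARNTL, the more widely expressed of the ARNTL genes, rose by 0.74 ± 0.13 and 0.68 ± 0.13 (adjusted p = 0.0042 and 0.0067), and CLOCK by 0.28 ± 0.07 and 0.26 ± 0.07 (adjusted p = 0.027 and 0.039).

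Of the 4 other repressors and bZIP factors (BHLHE41, NFIL3, HLF and CIART) none was called at 40 or 240 min. Among the modifiers of clock proteins, the casein kinase genes CSNK1D and CSNK1A1 rose at 240 min in scramble cells (0.50 ± 0.14 and 0.22 ± 0.06), and TIMELESS, which also acts at replication forks, fell in scramble cells (by 0.33 ± 0.08) and in shLAD1 cells (by 0.39 ± 0.08). The outputs moved in both directions. KLF10, a Krüppel-like repressor, rose at 40 min by 1.18 ± 0.18 in scramble cells (adjusted p = 0.018) and 1.11 ± 0.18 in shLAD1 cells (adjusted p = 0.022), and stood 1.30 and 1.33 higher at 240 min. NOCT, a rhythmic phosphatase gene, rose at 240 min by 1.70 ± 0.21 and 1.21 ± 0.21, and NAMPT, an enzyme of NAD synthesis, by 0.42 ± 0.09 and 0.44 ± 0.09. TSC22D3 (GILZ) fell by 2.24 ± 0.13 and 1.82 ± 0.13, and KLF9 by 1.05 ± 0.17 and 0.92 ± 0.17. TSC22D3 and KLF9 are also known targets of the glucocorticoid receptor, as is PER1, and whether that receptor had a part here was not tested. WEE1, a kinase that holds back mitosis, rose at 40 min in shLAD1 cells (0.67 ± 0.11, adjusted p = 0.020) and fell at 240 min in scramble cells (by 0.56 ± 0.11, adjusted p = 0.0067), and PPARA fell at 240 min in shLAD1 cells (by 0.26 ± 0.08, adjusted p = 0.042). At each time, a change given for a single cell type was not called in the other. The difference in response between the cells was called for none of the 27 genes in the fit without a block.

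**Figure D4:**
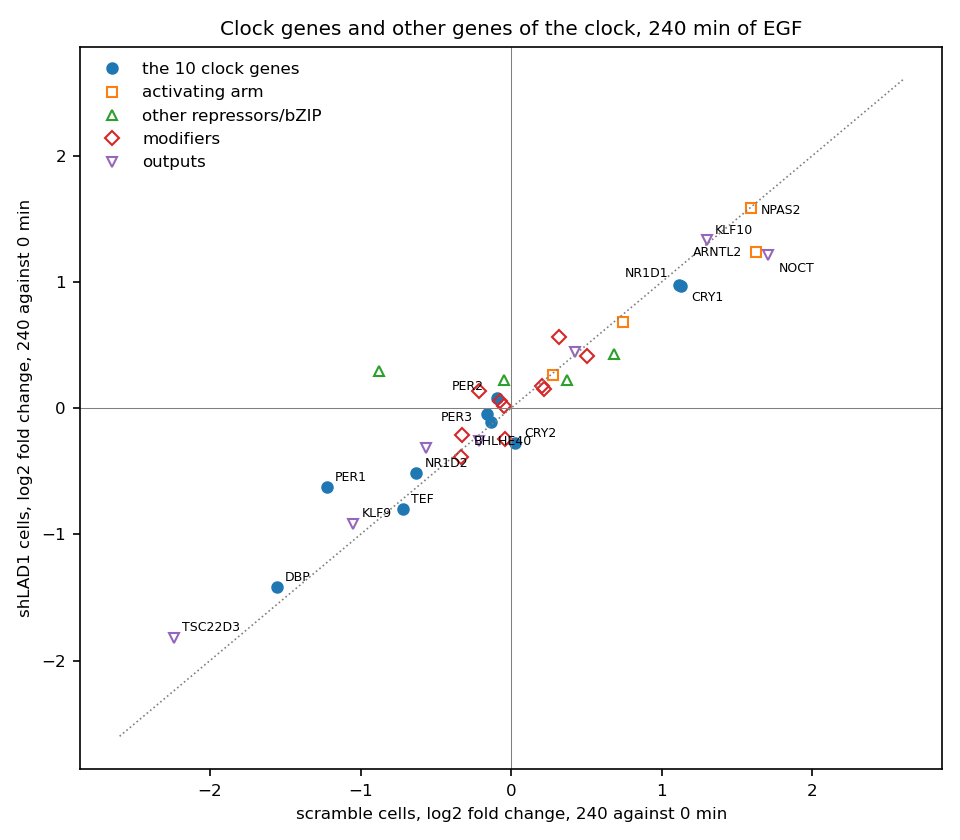
Log2 fold change at 240 against 0 min of EGF in scramble cells (x axis) and shLAD1 cells (y axis) for the 10 clock genes (filled circles) and 25 of the 27 other tested genes of the loop (open symbols by list); the dotted line marks equal change. NPAS2 and ARNTL2 lie with CRY1 and NR1D1 at the upper right, and TSC22D3, DBP, KLF9 and PER1 at the lower left.

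For each of the 8 clock genes called after EGF in scramble cells, up to 3 genes with the most similar profile over the 12 libraries are given by Pearson's r of log2 values. The 12 points share their times, cells and size factors, and r is a description. The closest to PER1 were RBBP6 (0.968), GADD45B (0.963), a stress-response gene, and ISL2 (0.955). The closest to PER2 were SNX18 (0.955) and the immediate early nuclear receptor NR4A1 (0.949). The closest to BHLHE40 were RALGDS (0.963), NCOA7 (0.950) and BTN2A1 (0.948). The genes nearest to the late risers were GART (0.985), SKI (0.985) and AGO2 (0.984) for CRY1, and INO80C (0.984), EPS8L1 (0.976) and HS3ST1 (0.974) for NR1D1. DBP was closest to CCHCR1 (0.995), KIAA0430 (0.989) and UNKL (0.989). TEF was closest to the replication checkpoint gene CLSPN (0.991), PPM1L (0.975) and ZNF552 (0.968). NR1D2 was closest to ENPP4 (0.985) and to HMMR (0.981) and NDC80 (0.972), which act at the mitotic spindle.

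Knockdown of LAD1 changed none of the 10 clock genes in the fit without a block, averaged over the 3 times, where 18.6% of all genes were called. None reached an unadjusted p under 0.05, and edgeR and DESeq2 called none. The differences ran from -0.17 ± 0.12 for BHLHE40 (adjusted p = 0.34) to 0.14 ± 0.11 for PER1 (adjusted p = 0.38). With the block for the number, BHLHE40 was called lower in shLAD1 cells (-0.17 ± 0.04, adjusted p = 0.0082), as were 17.9% of all genes; over its other settings the adjusted p reached 0.61. At 0 min, the authors' deposited table gives log2 fold changes between -0.23 for BHLHE40 and 0.29 for CRY2, with adjusted p from 0.66 to 0.99. Of the 27 other genes of the loop, 5 were higher and 1 lower in shLAD1 cells. NPAS2 was higher by 0.45 ± 0.12 (adjusted p = 0.028), TIMELESS by 0.24 ± 0.05 (0.0093) and PPARA by 0.17 ± 0.04 (0.026). HLF, at 2.90 to 38.3 normalized counts, was lower by -1.51 ± 0.36 (0.022). Only 1 shRNA against LAD1 was used, so its other targets cannot be told apart from LAD1.

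The response to EGF was compared between the cells by testing the difference itself. No clock gene was called at 40 or 240 min. In the fit without a block 0% of all genes were called at either time, with 99 and 133 of the 13950 genes at an unadjusted p under 0.05, and edgeR, DESeq2 and the block for the number called none. With the block within each shRNA the 40 min test called 0.0789% of all genes and the 240 min test 0.194%, none of them a clock gene; the lowest adjusted p of the 10 in any setting was 0.90 for BHLHE40 at 40 min and 0.43 for PER1 at 240 min. PER1 had the lowest p of the 10 at 240 min. Its change was 0.60 ± 0.26 higher in shLAD1 than in scramble cells (unadjusted p = 0.045, adjusted p = 1). The other differences at 240 min ran from -0.30 ± 0.20 for CRY2 to 0.17 ± 0.32 for PER2. At 40 min they ran from -0.17 ± 0.20 for CRY2 to 0.30 ± 0.26 for PER1. The libraries are bulk RNA, in which fewer cells of a type and less RNA per cell cannot be told apart.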

How the data were processed

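The 12 deposited columns are signal values, gene read counts divided by a size factor per library (normalized counts). The authors used STAR, DESeq2 and hg19, per the submitters' processing notes; for versions and the strand setting the sources used here give nothing. Dividing by the value of 1 read gave whole reads for 100% of values (tolerance 0.001). The authors' deposited table also holds log2 fold changes, their standard errors, a test statistic (score) and p-values for 1 contrast. Its fold change matches shLAD1 against scramble at 0 min within 0.01 for 99.98% of 11243 genes with a mean of at least 50.

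limma 3.58.1 (R 4.3.3) was fitted with trend and robust variance to log2(normalized count + 1) for all 12 libraries, 6 group means and 13950 genes. p-values were adjusted (Benjamini-Hochberg) within each of 9 comparisons. Genes named are the 10 clock genes, LAD1, FOS, EGR1, markers, the core activators and up to 6 called genes per list and comparison, overlapping genes, and up to 3 of the most similar genes (mean of at least 50) per clock gene. The clock genes and lists were chosen with earlier results of these data known. The similar genes used r over all libraries. Counts over the lists cover every tested gene, and some genes of the lists and of the similar genes are not reported here by name.

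Libraries of a group differed beyond counting error and were kept as 2 replicates. Chi-square per degree of freedom was 9.04 to 11.9 in the scramble groups and 20.2 to 22.6 in the shLAD1 groups. The main fit takes a single variance per gene over all groups, so errors given for shLAD1 cells also rest on the scramble libraries, which differed less. Deviations from group means correlated between same-numbered libraries at 0.645 to 0.734 within an shRNA (6 pairs) and 0.247 to 0.307 between shRNAs (9 pairs), so the numbers were taken as pairs and fitted as a block. The deposited column names carry the same pairing, as a prefix (o or s) shared by all same-numbered libraries. What the prefix or the number marks is not given. The alternatives were edgeR 4.0.16, DESeq2 1.42.0, 2 blocks, pseudocounts of 0.5 and 5, no filter, upper-quartile and total-count scaling, only the groups compared, and leaving out each library, where the lone library left is assumed to vary like the other groups. Scripts were tested on simulated data. Promoters are from RefSeq (GRCh38.p14) and exons from GENCODE v29; neither is the build of the files.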

Additional observations from a re-analysis of the deposited data

How the results depend on the processing

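No clock gene changed direction where it was called, in any alternative. At 40 min in scramble cells the number of clock genes called went from 0 to 2 with the replicate block, 4 with the replicate block within each shRNA and 1 in a fit of only the groups compared. That last fit called 0.695% of all genes higher. In shLAD1 cells it went from 0 to 3 with DESeq2, 3 with the replicate block and 4 with the replicate block within each shRNA. A fit of only the groups compared called 2 in shLAD1 cells, in place of 6 at 240 against 0 min and 7 at 240 against 40 min. Of all genes it called 1.78% higher and 0.373% lower against 0 min, in place of 10.8% and 7.76%. Against 40 min it called 0.609% and 0.466%, in place of 8.84% and 7.56%. In scramble cells the same kind of fit called 6 and 8 clock genes, in place of 6 in each comparison. There it called 13.3% of all genes higher and 8.76% lower against 0 min, in place of 11.7% and 8.44%. Against 40 min those shares were 12.6% and 9.5%, in place of 10.2% and 8.34%. The mean knockdown comparison went from 0 to 1 with the replicate block. Leaving out 1 library at a time gave 4 to 5 called of 6 in both scramble comparisons at 240 min, and 3 to 4 of 6 against 0 min and 4 to 6 of 7 against 40 min in shLAD1 cells. The cause of these changes was not tested. The fits of fewer groups or libraries also rest on fewer libraries. With a library left out, fewer of all genes were called too in the 240 min comparisons within each cell type. Total-count scaling shifted the median of all genes at 240 against 0 min by -0.13 in scramble and -0.12 in shLAD1 cells and moved all calls from 11.7% higher and 8.44% lower to 8.19% and 15.8%, and from 10.8% and 7.76% to 7.28% and 13.7%. Upper-quartile factors gave 9.57% and 11.4%, and 8.86% and 9.84%. The same 6 clock genes were called at 240 against 0 min in both cell types under both scalings. The blocks changed no clock gene call beyond those given beside the results. Depth limits PER1 most, with 54 reads in 1 library at 240 min.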
